A study of Mus musculus with 28 samples.

Results

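Myotubes after 96 h in differentiation medium (DM96h) were compared with proliferating myoblasts in growth medium (GM) by RNA-seq of C2C12 cells, over all genes of the deposited count table. The members were the libraries whose titles name 96 h in DM and those whose titles name GM, 3 in each group, which made 6 of the 18 RNA-seq libraries and of the 28 libraries of the series (18 RNA-seq, 4 ATAC-seq and 6 Hi-C). C2C12 is an immortalised line of mouse myoblasts, and both groups were wild type and came from that 1 line, with no added allele or drug. DM96h cells had been moved at 90% confluence to medium with 3% horse serum and kept there for 96 h, whereas GM cells were kept in 20% fetal bovine serum, so that serum source, serum amount, density and time differ together between the groups. The hours of the last time point vary from sample to sample in the protocol text, and the titles, which give 96 h for all 3 libraries, were followed. The labels give the cell type as myoblast in both groups and call the replicates biological without describing separate cultures, so the p-values measure the spread between these libraries, which may be technical.

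Myoblasts in rich medium divide and are held back from differentiation in part by Id proteins, which bind the partners that MyoD family factors need. When mitogens are withdrawn, the MyoD family and MEF2 factors switch on Myog, the cells leave the cell cycle through CDK inhibitors and the retinoblastoma protein, fuse through Mymk and Mymx, and build sarcomeres, in which thick filaments of myosin slide along thin filaments of actin, tropomyosin and troponin. The cultures were measured in bulk, so fewer cells of a type and less RNA per cell cannot be told apart.

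Of the genes in the table, 15303 had enough counts to be tested, and 10535 of them (68.8%) differed between DM96h and GM at an adjusted p under 0.05 (edgeR's quasi-likelihood F test, p-values adjusted by Benjamini-Hochberg over all tested genes). At 96 h, 5319 genes were higher (34.8% of those tested) and 5216 lower (34.1%). A change of at least 2-fold was reached by 1739 higher genes (11.4%) and 1775 lower genes (11.6%), and a change of at least 8-fold by 440 higher and 309 lower genes. Over all tested genes the median log2 fold change was 0.0067, with 5% of genes below −1.88 and 5% above 1.98. The 3 DM96h libraries did not overlap the 3 GM libraries for 10944 genes (71.5%). Against such a background a count of called genes says little by itself, and the median log2 fold change of a gene group is given beside it. In the text, levels are CPM, read counts scaled for library size, which are not divided by gene length and so are compared between groups and never between genes, and log2 fold changes (log2FC, DM96h over GM) are given ± the standard error of the fit.

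**Figure D1:**
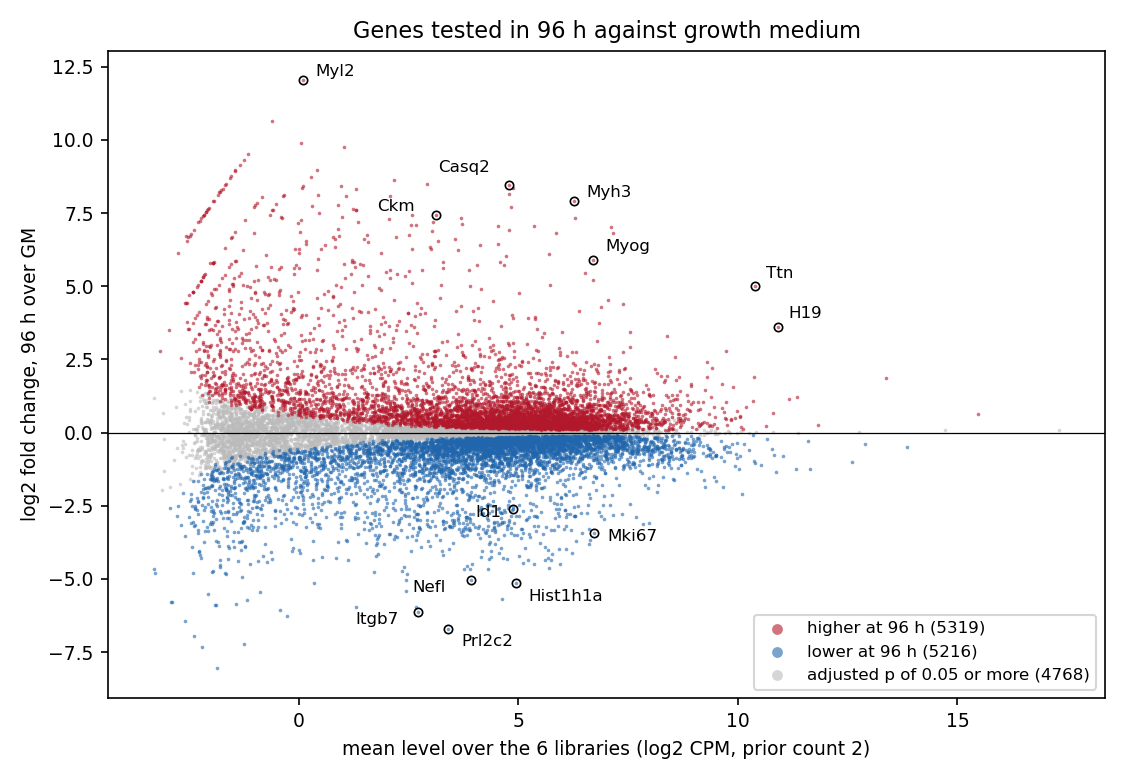
Each point is 1 of the 15303 tested genes, with its mean level over the 6 libraries in log2 CPM across and its log2 fold change of DM96h over GM upward. Red points are the 5319 genes higher at 96 h, blue points the 5216 lower and grey points those not called. The fitted fold changes of genes with no count in 1 group, such as Myl2, are no measure of size.

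The depth of the libraries overlapped between the groups, and the shares that made them up differed. Total counts were 30.5 to 31.3 M in DM96h libraries and 26.8 to 32.8 M in GM libraries. The share of counts in protein-coding genes was 68.4 ± 0.982% in DM96h and 70.9 ± 0.612% in GM (SD, n = 3 each), and the 7SL RNA genes Rn7s1 and Rn7s2 together held 21.6 ± 1.46% in DM96h and 19.8 ± 0.264% in GM, chosen after their values were seen. Mitochondrially encoded genes held 1.03 ± 0.084% in DM96h and 0.732 ± 0.0133% in GM. The 10 genes with the most counts in a library held 30.5 ± 1.26% in DM96h and 28.1 ± 0.266% in GM. None of these shares overlapped between the groups (exact two-sided permutation test, p = 0.1 each, the smallest that 3 against 3 can give), and their part in the results was not tested. Among the 6 libraries a first principal component with 90.4% of the variance separated the groups.

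The cultures carried the markers their names call for. All 10 myotube markers rose, with a median log2FC of 7.24 and a summed level of 5180 to 5703 CPM in DM96h, against 46.3 to 50.4 CPM in GM. Of 8 markers of proliferating myoblasts, 7 fell and 1, Myod1, rose (median −2.76), with sums of 328.5 to 338.0 CPM in DM96h and 1701 to 1757 CPM in GM. Of 8 satellite or reserve cell markers, 7 were tested, 5 rose and 1 fell (median 0.43). Pax7, the transcription factor of satellite cells, was at 8.06, 8.61 and 8.90 CPM in DM96h and 6.49, 5.62 and 6.95 CPM in GM, a small rise of 0.43 ± 0.10 (adjusted p = 5.9e-04). The Notch target gene Heyl (3.63 ± 0.15), the transcription factor gene Sox8 (3.42 ± 0.15) and Spry1, an inhibitor of growth factor signalling (3.22 ± 0.13), rose more, and Cd34, a surface sialomucin, fell (−1.70 ± 0.05). Of the markers of unrelated cells, many were at or near 0: each of the 4 neuron markers summed to at most 4 counts in DM96h and 7 in GM, and the adipocyte genes Plin1, Cidec and Cfd, the bone gene Ibsp, the cartilage gene Acan, the heart genes Nppa and Tbx5 and the macrophage gene Adgre1 had no count in any of the 6 libraries. Others were above 0 in both groups, Cebpa and Runx2 among them. Of 7 adipocyte markers only 2, Cebpa and Pparg, were tested, and they summed to 20.7 to 20.9 CPM in DM96h and 29.4 to 33.4 CPM in GM. Of 8 bone and cartilage markers only 2, Runx2 and Sox9, were tested. They summed to 19.2 to 21.2 CPM in DM96h and 22.9 to 27.9 CPM in GM. Each tested adipocyte, bone, cartilage and macrophage marker was lower at 96 h or within 0.23 of GM on the log2 scale, and Tek, an endothelial marker, was higher (1.71 ± 0.43) at 0.702 ± 0.074 CPM in DM96h and 0.214 ± 0.040 CPM in GM (SD, n = 3 each). Of the 7 smooth muscle markers, 5 were tested, 3 rose and 1 fell (median 0.34), with sums of 1408 to 1621 CPM in DM96h and 519.5 to 531.1 CPM in GM, most of it Acta2. The defining smooth muscle gene Myh11 had 4 counts in DM96h and 1 in GM. Of the 6 heart markers, 4 were tested, and Myh6, which resembles Myh7, rose (6.54 ± 0.28) while Gata4 fell (−0.74 ± 0.10).

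Promoter sequences of 4 genes are given as examples, and do not stand for all the genes that moved with them. The sequences are the 250 bases before the start in RefSeq (GRCm38.p6, the same assembly as the mm10 build of the files), 5′ to 3′ on the gene's strand, with motifs found on either strand in capitals. The motifs were the E-box CAGCTG, which MyoD family factors bind, the TATA box letters TATAAA, the CCAAT box, and the core TTTGAA of the cell cycle homology region (CHR). Myh4, a fast adult myosin heavy chain, lies at chr11:67237562-67237811 (plus strand), the skeletal α-actin Acta1 at chr8:123894776-123895025 (minus strand), the muscle intermediate filament gene Des at chr1:75360042-75360291 (plus strand) and the proliferation marker Mki67 at chr7:135716380-135716629 (minus strand).
Myh4: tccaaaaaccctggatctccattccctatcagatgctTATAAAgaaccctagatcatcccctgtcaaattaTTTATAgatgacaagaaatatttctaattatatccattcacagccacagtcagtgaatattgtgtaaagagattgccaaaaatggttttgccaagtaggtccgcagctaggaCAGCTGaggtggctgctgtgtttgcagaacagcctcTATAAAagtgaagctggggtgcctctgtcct
Acta1: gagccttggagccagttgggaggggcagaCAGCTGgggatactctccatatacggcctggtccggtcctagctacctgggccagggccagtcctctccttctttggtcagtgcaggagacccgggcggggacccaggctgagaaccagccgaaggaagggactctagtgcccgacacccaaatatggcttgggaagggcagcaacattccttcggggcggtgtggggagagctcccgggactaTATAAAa
Des: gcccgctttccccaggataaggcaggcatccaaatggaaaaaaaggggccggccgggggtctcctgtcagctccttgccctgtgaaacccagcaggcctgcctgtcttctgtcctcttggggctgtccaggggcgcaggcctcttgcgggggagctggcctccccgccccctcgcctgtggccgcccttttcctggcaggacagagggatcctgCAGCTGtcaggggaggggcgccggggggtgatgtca
Mki67: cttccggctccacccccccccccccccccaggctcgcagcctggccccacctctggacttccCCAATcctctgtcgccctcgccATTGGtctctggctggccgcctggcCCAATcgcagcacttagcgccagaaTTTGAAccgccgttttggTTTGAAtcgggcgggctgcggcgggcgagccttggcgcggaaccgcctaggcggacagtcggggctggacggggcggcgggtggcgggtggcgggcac

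The E-box lies 67 bases before the start of Myh4, 221 before that of Acta1 and 36 before that of Des, and the window of Mki67 holds 2 CHR cores and 3 CCAAT boxes. RefSeq promoters from 250 bases before to 50 after the start were found for 10458 of the tested genes (13357 promoters). CAGCTG stood in 28.1% of promoters of genes at least 8-fold higher at 96 h and 24.8% of those at least 2-fold higher, against 15.8% for genes at least 2-fold lower and 15.8% for all tested genes. Among thin filament genes it stood in 44.4% of 18 promoters and among thick filament genes in 36.4% of 22, but among Z-disc genes in 19% of 21. The other E-box searched, CAGGTG, stood in 26.1% of promoters of genes at least 8-fold higher, 15.7% of those at least 8-fold lower and 17.3% of all. TTTGAA stood in 33.3% of promoters of genes at least 8-fold lower and 12.3% of all, and in 69.6% of the 23 promoters of mitosis genes. The E2F letters TTTCCCGC, TTTGGCGC or TTTCGCGC stood in 11.0% of promoters of genes at least 8-fold lower, 0.752% of those at least 8-fold higher and 3.41% of all, and in 41.4% of the 29 promoters of DNA replication genes. CCAAT stood in 95% of 20 histone promoters, 78.3% of mitosis and 77.8% of cholesterol synthesis promoters, against 38% of all, and TATAAA in 55.0% of histone and 40.9% of thick filament promoters, against 7.57% of all. These are matches of letters in a window and were not tested.

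Chromatin accessibility (ATAC-seq, where a transposase inserts adapters into open DNA) was deposited as 1 peak list at 60 h and 1 in GM, for 2 libraries each, and was not measured at 96 h, so it is described with no test. Within 1 kb of a start, 37 of 301 genes at least 8-fold higher at 96 h (12.3%) had a peak in the 60 h list and none in the GM list. The share was 2.48% for genes 2- to 8-fold higher, 0.437% for genes at least 8-fold lower and 0.908% for all 10458 genes. A further 15% of the genes at least 8-fold higher had a peak in neither list, against 3.82% of all genes, and 72.1% had one in both. Genes of the first kind included the myosin genes Myh4, Myh8, Myl1 and Myl2, the slow and cardiac troponin C gene Tnnc1, the myosin chaperone gene Unc45b, the calcium store genes Casq2 and Hrc and the muscle sodium channel gene Scn4a. Acta1, Ckm, Des and Myog had peaks in both lists, and Dmd, Pygm and Myh2 in neither. Of the genes at least 8-fold lower at 96 h, 88.6% had a peak in both lists and 1.75% in the GM list alone, against 94.8% and 0.526% of all genes.

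**Figure D2:**
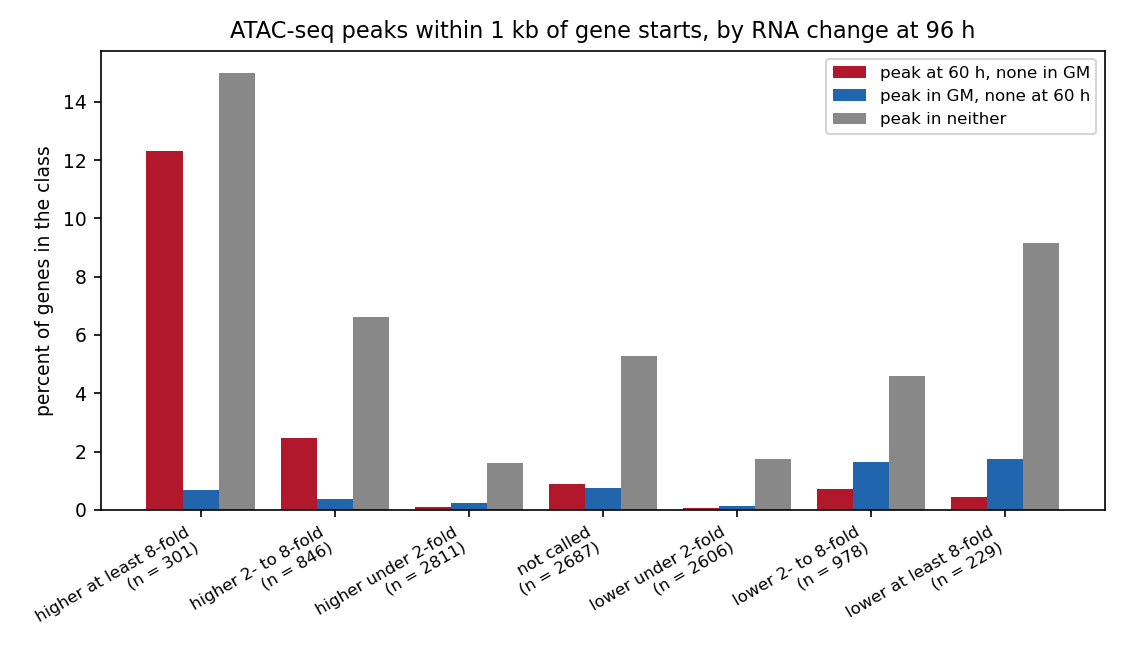
Bars give the percent of genes in each class of RNA change at 96 h that had an ATAC-seq peak within 1 kb of a start at 60 h and not in GM (red), in GM and not at 60 h (blue) or in neither list (grey), with the number of genes under each class. The red bar is 12.3% for genes at least 8-fold higher at 96 h and 2.48% or less in every other class.

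The transcription factors of the muscle programme split in direction. Myog, the factor of terminal differentiation, was at 790.5, 798 and 820 CPM in DM96h and 13.4, 13.1 and 13.5 CPM in GM, a 60.1-fold rise (5.91 ± 0.08, adjusted p = 1.2e-23). The DM96h libraries lay close together and far above every GM library. Myod1, which commits cells to the lineage, was at 94.1, 87.1 and 102 CPM in DM96h and 49.8, 42.6 and 48.7 CPM in GM (1.00 ± 0.07). Myf5, the other commitment factor, went the opposite way, with 33.1, 32.9 and 31.5 CPM in DM96h and 75.6, 76.0 and 70.3 CPM in GM (−1.19 ± 0.06). Neither gene's groups overlapped. Myf6, the factor of late and adult fibres, averaged 0.147 CPM in DM96h and 0.332 CPM in GM and did not pass the test (−1.13 ± 0.57, adjusted p = 0.083), though it did without GM replicate 2 (−1.51). Of the 15 myogenic factors listed, 13 were tested, 10 rose and 2 fell (median 0.69), with the MEF2 gene Mef2a (2.19 ± 0.06) and the TEA-domain factor gene Tead4 (2.22 ± 0.09) among the risers. Mef2c, a partner of the MyoD family, was at 79.0, 73.0 and 70.6 CPM in DM96h and 3.82, 4.09 and 3.59 CPM in GM (4.27 ± 0.10). Pax3 and Mef2b had under 10 counts in each group.

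Id1, Id2 and Id3, which act against these factors, fell. Id1 was at 12.1, 10.9 and 13.2 CPM in DM96h and 79.0, 66 and 73.5 CPM in GM (−2.60 ± 0.09), and Id2 (−2.46 ± 0.11) and Id3 (−1.85 ± 0.08) fell with it. Twist2, a bHLH repressor of MyoD, fell to 2.90 ± 0.27 CPM in DM96h, against 19.2 ± 0.48 CPM in GM (SD, n = 3 each). Of 14 tested genes in the list of Id proteins, E proteins and MyoD repressors, 8 fell and 5 rose (median −0.72). The risers included the E protein genes Tcf4 (1.34 ± 0.05) and Tcf12 (0.55 ± 0.05), which are partners of MyoD, and the repressor gene Hdac9 (1.03 ± 0.06). In the Notch pathway, which holds satellite cells in reserve, 7 of 12 tested genes rose and 4 fell (median 0.32). The ligand Dll1 (4.6 ± 0.11) and the target Heyl (3.63 ± 0.15) rose, whereas the ligand Jag2 (−1.64 ± 0.09), the DNA-binding factor Rbpj (−0.36 ± 0.07) and the target Hes1 (−0.26 ± 0.08) fell.

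Both fusogens of muscle rose. Mymk, the membrane activator of fusion, was at 214, 197 and 237 CPM in DM96h and 2.45, 2.29 and 2.69 CPM in GM (87.2-fold, 6.45 ± 0.09). Mymx, its micropeptide partner, was at 75.1, 72.0 and 75.1 CPM in DM96h and 0.334, 0.428 and 0.499 CPM in GM (173-fold, 7.44 ± 0.12). Every DM96h library lay far above every GM library for both. The membrane genes Cav3 (7.77 ± 0.23) and Dysf (3.00 ± 0.08), a caveolin and a repair protein of muscle, also rose. Of 22 fusion genes listed, 19 were tested, and 11 rose while 6 fell (median 0.34). The Rac activation genes Elmo1 (−1.17 ± 0.16) and Dock1 (−0.51 ± 0.07) and the adhesion gene Kirrel3 (−1.03 ± 0.32) were among those that fell.

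**Figure D3:**
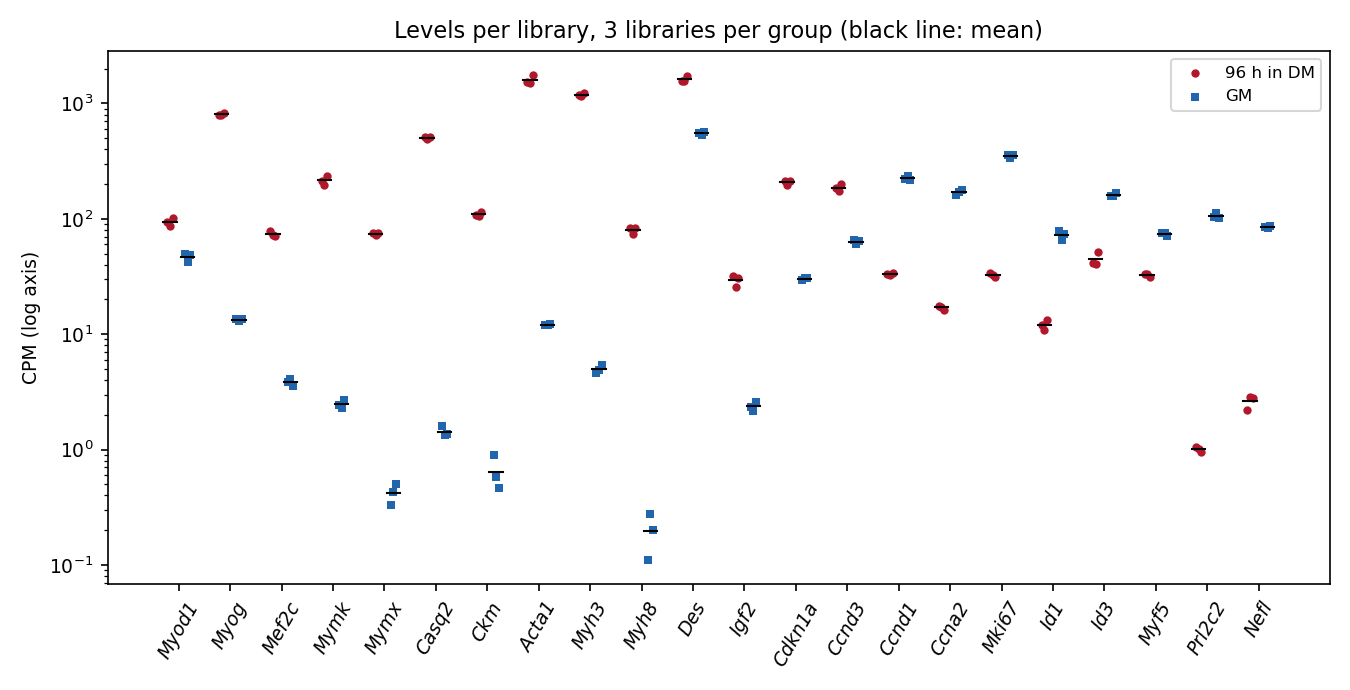
Points are the levels of 22 genes in each library, in CPM on a log axis, with DM96h in red left of GM in blue and a line at each mean of 3 libraries. No gene shown has overlapping groups. Levels can be compared between the groups of a gene and not between genes, since CPM is not divided by length.

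Among the lists of cell structures and pathways the thick filament had the highest median. All 23 tested genes of the thick filament and M-band rose, by at least 0.92. Their median log2FC was 6.81, against 0.0067 for all genes. Their summed level was 12860 to 14670 CPM in DM96h and 338 to 360 CPM in GM. Myl3 and Mybpc3, the slow or cardiac essential light chain and the cardiac myosin-binding protein, had too few counts to be tested. The embryonic myosin gene Myh3 was at 1193, 1151 and 1234 CPM in DM96h and 4.63, 4.92 and 5.39 CPM in GM (239-fold, 7.90 ± 0.09, adjusted p = 6.2e-24). The perinatal myosin gene Myh8 was at 82.6, 74.5 and 83.2 CPM in DM96h and 0.111, 0.275 and 0.199 CPM in GM (8.61 ± 0.20). The adult fast genes rose as well. Myh1 (type IIX) had 409.5, 394.8 and 423.6 CPM in DM96h and 1.52, 2.05 and 2.29 CPM in GM (7.70 ± 0.09). Myh2 (type IIA) had 1406 counts over the DM96h libraries and 3 over the GM libraries, a ratio of 475 after scaling for depth (95% interval of the counts 162 to 2310). Myh4 (type IIB) had 1674 in DM96h and 3 in GM, a ratio of 566 (193 to 2750). These 5 genes lie side by side on chr11 (67078273 to 67308634, in the order Myh3, Myh2, Myh1, Myh4, Myh8). The slow gene Myh7 on chr14 averaged 69.1 ± 4.37 CPM in DM96h and 0.911 ± 0.368 CPM in GM (SD, n = 3 each). Myosin heavy chain genes are alike in sequence, and the sources used here do not give how reads matching several of them were assigned, so their separate values are uncertain.

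Light chains and myosin-binding proteins moved with the heavy chains. Myl4, the embryonic and atrial essential light chain, averaged 532 ± 25.0 CPM in DM96h and 1.62 ± 0.333 CPM in GM (326-fold, SD, n = 3 each), and Myl1, the fast one, rose 5.45 ± 0.08. Mybph, a myosin-binding protein of the H type, averaged 462 ± 26.8 CPM in DM96h and 1.61 ± 0.275 CPM in GM (287-fold). Myl2, the slow regulatory light chain, had 1533 counts in DM96h and none in GM, at least 518-fold higher when GM is set at 3 counts over the group. Ttn, which encodes the giant spring titin, was at 7691, 6992 and 8381 CPM in DM96h and 251, 230 and 236 CPM in GM (32.2-fold).

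Of 19 thin filament genes, 17 rose and 1 fell (median 6.02). Acta1 was at 1519, 1489 and 1764 CPM in DM96h and 12.0, 11.9 and 12.3 CPM in GM (131-fold, 7.04 ± 0.09). The cardiac α-actin gene Actc1, which fetal skeletal muscle also uses, rose 7.11 ± 0.11. Fast, slow and cardiac troponin genes all rose, by 3.10 to 7.32. The fast Tnni2, Tnnt3 and Tnnc2 rose by 7.07 ± 0.14, 7.07 ± 0.09 and 6.91 ± 0.10, the slow Tnni1 and Tnnt1 by 6.82 and 6.02, and the slow and cardiac Tnnc1 by 7.32 ± 0.09. Lmod2, a nucleator of thin filaments, rose 7.61 ± 0.17. Tpm3, which encodes slow muscle and non-muscle tropomyosins, was the 1 gene that fell (−1.09 ± 0.04). Tmod4, a capping protein, did not pass the test (−0.61).

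All 19 tested Z-disc genes rose (median 3.73). The stress-responsive ankyrin gene Ankrd2 (9.77 ± 0.25), the calsarcin gene Myoz2 (7.65 ± 0.22), the titin cap gene Tcap (7.25 ± 0.30) and the muscle LIM protein gene Csrp3 (7.21 ± 0.19) rose most. In that order their mean GM levels were 0.0494, 0.136, 0.054 and 0.18 CPM, near 0, so the sizes of these rises are uncertain. Only 1 GM library held counts of Ankrd2. Of 14 genes for chaperones and stabilisers of the sarcomere, 11 rose, each at least 2-fold, and 3 fell (median 3.26). Unc45b, the myosin chaperone, rose 8.10 ± 0.17, and the nebulin-stabilising Klhl41 and Klhl40 rose 6.41 ± 0.10 and 6.29 ± 0.12. The general chaperone genes Hsp90aa1 (−0.36 ± 0.05) and Hspb1 (−0.33 ± 0.06) and the methyltransferase gene Smyd2 (−1.03 ± 0.06) fell. Des, which links Z-discs, was already at 554, 536 and 565 CPM in GM, with 1562, 1563 and 1726 CPM in DM96h, and rose 2.93-fold.

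**Figure D4:**
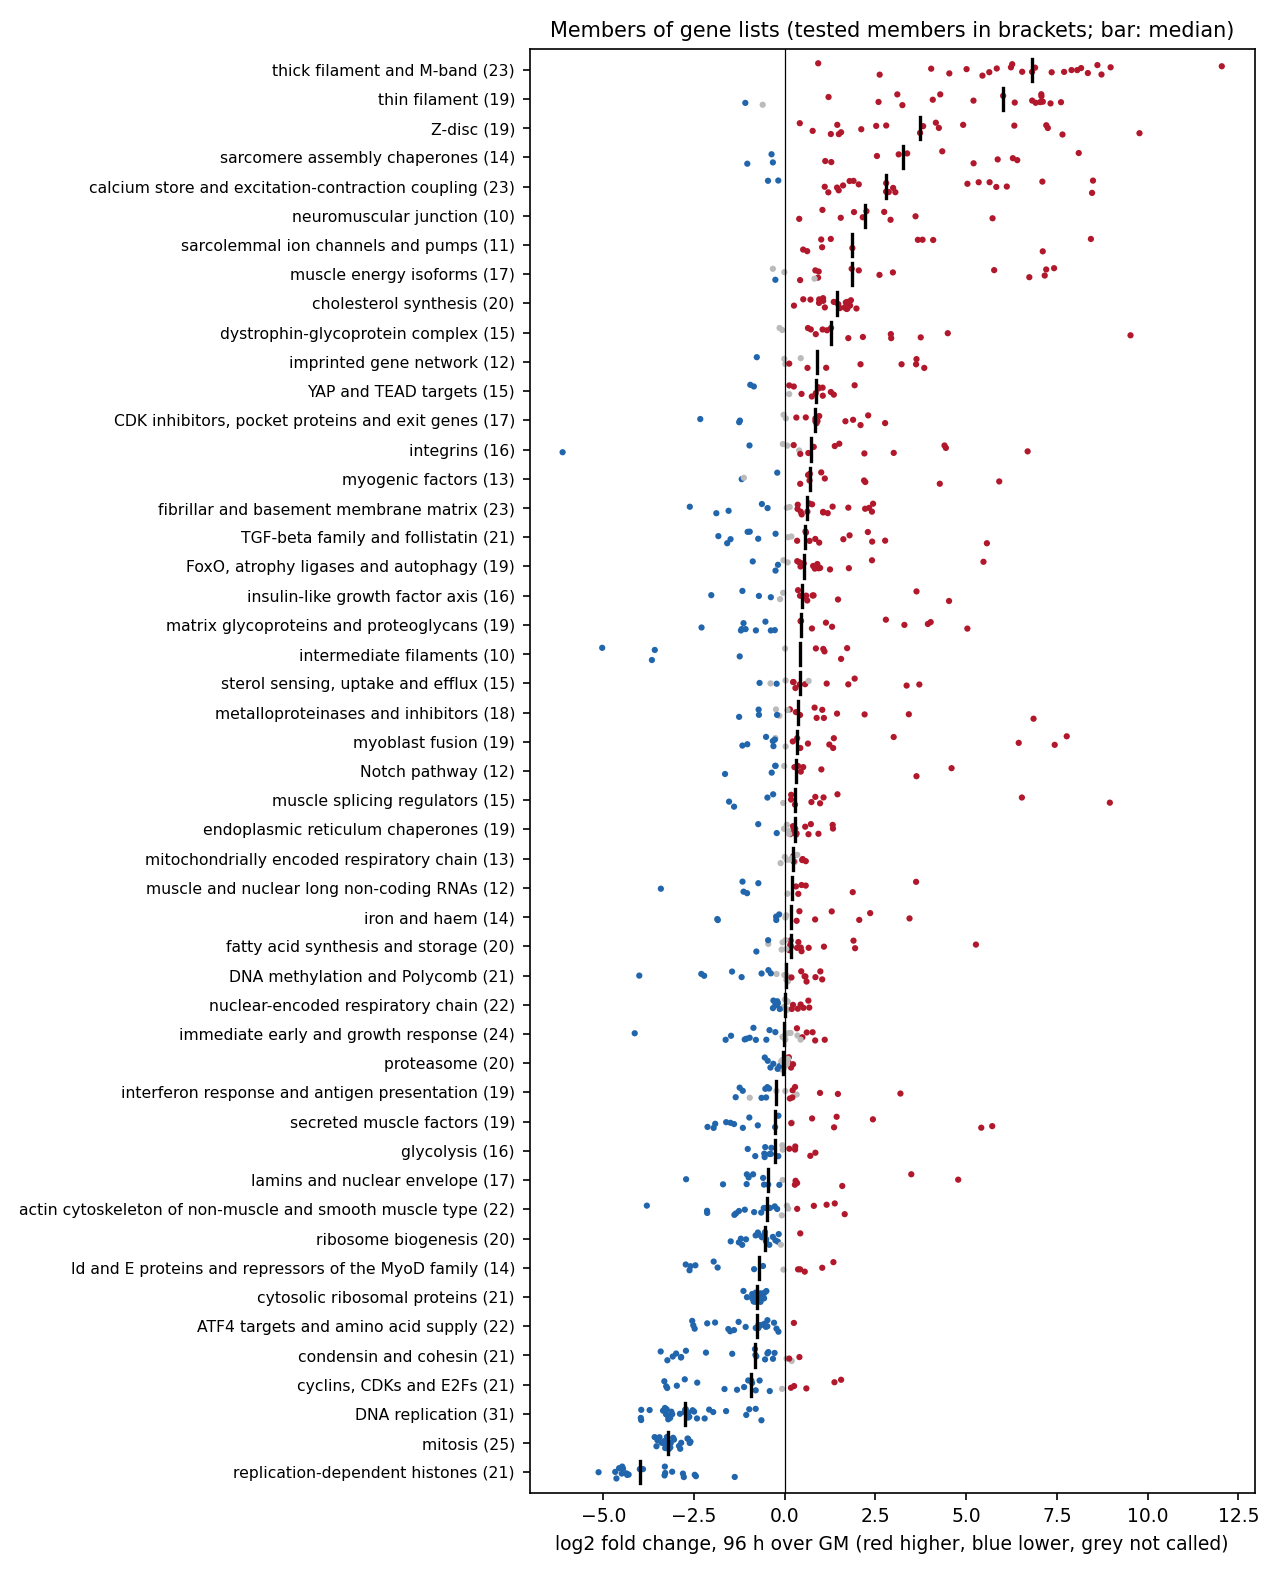
Each row is a gene list, with the number of tested members in brackets, each point a member's log2 fold change of DM96h over GM and the bar the median. Red points rose, blue points fell and grey points were not called. The medians run from 6.81 for the thick filament to −3.99 for replication-dependent histones.

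The machinery that couples the membrane to contraction rose. Of 23 tested genes of the calcium store and excitation-contraction coupling, 21 rose, each at least 2-fold, and 2 fell (median 2.79). Casq2, a calcium-binding protein of the sarcoplasmic reticulum, had the largest rise of all genes at a mean log2 CPM of 3 or more, with 515, 491 and 512 CPM in DM96h and 1.59, 1.34 and 1.36 CPM in GM (354-fold, 8.47 ± 0.12). Cacna1s, the voltage sensor of the T-tubule, was at 133, 123 and 146 CPM in DM96h and 0.408, 0.244 and 0.465 CPM in GM (8.49 ± 0.14). Hrc and Srl, both proteins of the store, rose 7.10 ± 0.11 and 6.12 ± 0.10. Mtm1 (−0.46 ± 0.09), a lipid phosphatase of the triad, and Asph (−0.18 ± 0.05), whose locus also makes junctin, fell. Sln, a small inhibitor of the calcium pump, had 1 count in DM96h and 2 in GM and was not tested.

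All 11 tested channel and pump genes of the sarcolemma rose (median 1.86), and 5 more had too few counts to be tested, among them the muscle chloride channel gene Clcn1 with 16 counts in DM96h and 26 in GM. Scn4a had 1149 counts in DM96h and 3 in GM, a ratio of 388 (133 to 1890). Of 12 genes of the neuromuscular junction 10 were tested and rose (median 2.20). Chrng, the fetal γ chain of the acetylcholine receptor, was at 177, 176 and 202 CPM in DM96h and 3.52, 3.06 and 3.92 CPM in GM (52.9-fold). The adult chain gene Chrne had 2 counts in DM96h and none in GM, and the acetylcholinesterase gene Ache had 35 in DM96h and none in GM, both under the filter. In the dystrophin complex, which ties the cytoskeleton to the matrix, 13 of 15 genes rose and 0 fell (median 1.28). Dmd had 268 counts in DM96h and none in GM, at least 90.6-fold higher, while its relative Utrn rose 0.86 ± 0.04. The sarcoglycan gene Sgca (2.93 ± 0.10) rose, and Sgcd (−0.14) and Sntb2 (−0.07) did not pass the test.

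Several muscle forms of energy genes rose. Ckm, the muscle creatine kinase, was at 108, 105 and 116 CPM in DM96h and 0.890, 0.581 and 0.465 CPM in GM (171-fold, 7.42 ± 0.15), and Ckb, the brain form, rose 1.37 ± 0.07. Mb, the oxygen store myoglobin, rose 7.20 ± 0.14. Of 25 pairs of related genes, in energy supply and elsewhere, 23 had both genes tested. In 9 the muscle or non-dividing form rose and the other fell, in 10 both rose, and in 4 at least 1 gene was not called. Pairs that split, besides the D-type cyclins, were glycogen phosphorylase (Pygm 6.74 ± 0.26, Pygb −0.58 ± 0.06), phosphoglycerate mutase (Pgam2 5.77 ± 0.17, Pgam1 −0.38 ± 0.04), enolase (Eno3 0.42 ± 0.04, Eno1 −0.56 ± 0.07), cytochrome oxidase subunit 6a (Cox6a2 2.98 ± 0.20, Cox6a1 −0.72 ± 0.06), the glucose transporters (Slc2a4 2.04 ± 0.39, Slc2a1 −1.02 ± 0.06), α-actinin (Actn2 6.33 ± 0.27, Actn1 −0.40 ± 0.06), filamin (Flnc 1.45 ± 0.08, Flna −1.34 ± 0.05) and the Ezh methyltransferases of Polycomb (Ezh1 0.98 ± 0.04, Ezh2 −1.45 ± 0.06), of which Ezh1 is the form of non-dividing cells. Both forms rose for cytochrome oxidase subunit 8 (Cox8b 7.16 ± 0.32, Cox8a 0.29 ± 0.06), subunit 7a (Cox7a1 0.84 ± 0.25, Cox7a2 0.15 ± 0.05) and aldolase (Aldoa 0.70 ± 0.05, Aldoc 0.84 ± 0.24), and Cox7a2 was not called without DM96h replicate 2 (0.12) or without GM replicate 1 (0.12). For phosphofructokinase Pfkm rose (1.84 ± 0.04) and Pfkl did not pass the test (−0.06 ± 0.06, adjusted p = 0.37). In the carnitine palmitoyltransferases the muscle form Cpt1b did not pass the test (−0.33 ± 0.23, adjusted p = 0.21) and Cpt1a fell (−0.59 ± 0.07). Slc2a4 was low in both groups, at a mean of 0.883 CPM in DM96h and 0.210 CPM in GM. Mean GM levels of Cox8b (0.0592 CPM), Actn2 (0.172 CPM) and Pygm (0.255 CPM) were near 0, so the sizes of these rises are uncertain. Pygm varied between the DM96h libraries, at 19.1, 28.1 and 36.2 CPM, against 0.222 to 0.299 CPM in GM. A second entry under the same symbol averaged 25.7 CPM in DM96h and 0.254 CPM in GM.

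**Figure D5:**
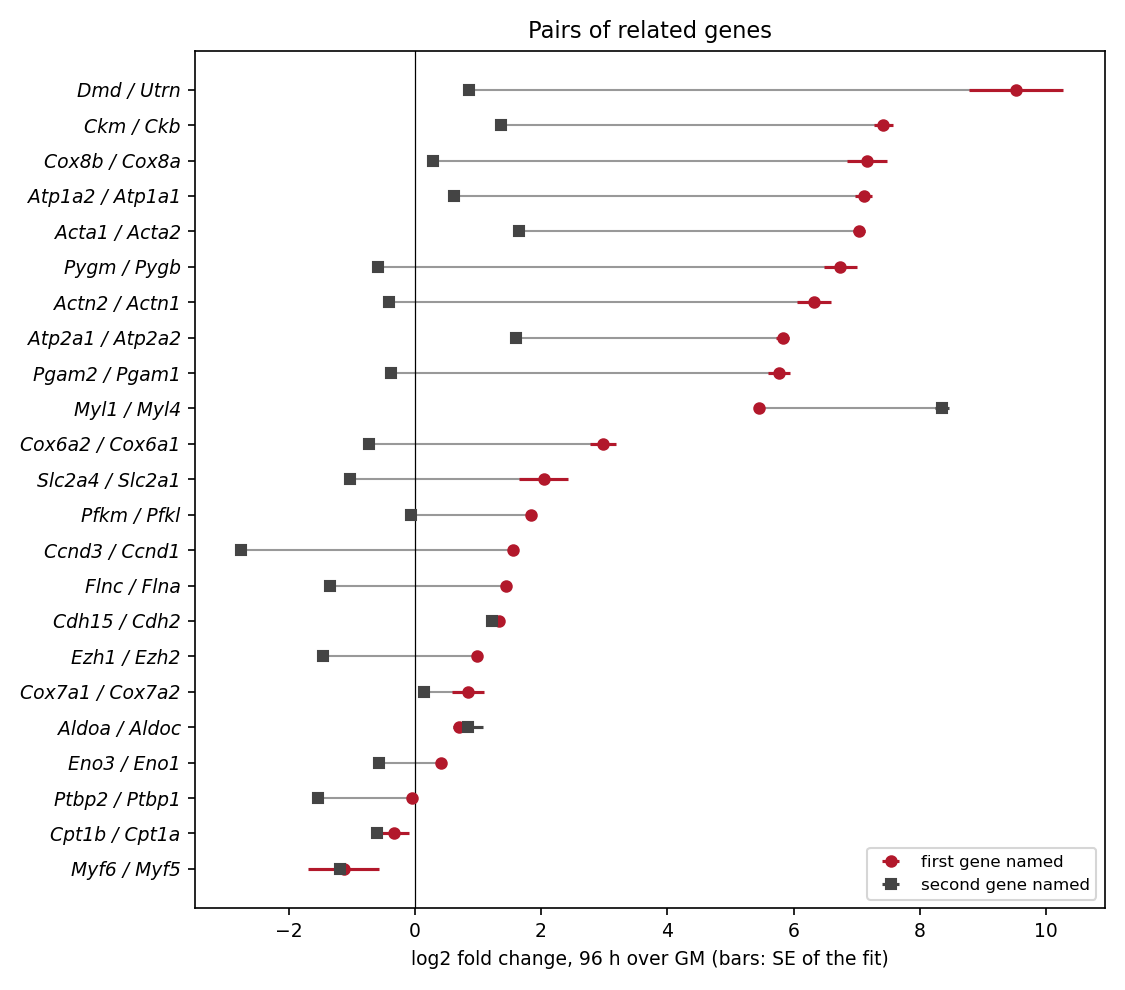
Each row is a pair of related genes, with the log2 fold change of DM96h over GM of the first gene named as a red circle and of the second as a dark square, and bars for the standard error of the fit. Pairs such as Pygm and Pygb or Ccnd3 and Ccnd1 lie on either side of 0. The fitted value of Dmd, which had no count in GM, is no measure of size.

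Shared energy pathways changed little. Of 16 glycolysis genes, 5 rose and 9 fell (median −0.27), with Pkm, the pyruvate kinase of muscle and dividing cells, at −0.81 ± 0.05 and Aldoa, the muscle aldolase, at 0.70 ± 0.05. Gapdh did not pass the test (−0.06). Of 22 nuclear genes of the respiratory chain, 7 rose and 8 fell, none by 2-fold, and the median of 0.0028 had no stable sign: it was −0.032 with upper-quartile scaling, −0.038 among protein-coding genes alone and −0.043 without DM96h replicate 3. Of 13 mitochondrially encoded genes, 6 rose and 0 fell (median 0.24), led by mt-Nd3 (0.58 ± 0.08). Of 9 tested regulators of mitochondrial biogenesis, 4 rose and 3 fell (median 0.058). Ppargc1a, a coactivator, rose 1.15 ± 0.26 at a low level of 1.88 ± 0.41 CPM in DM96h and 0.841 ± 0.13 CPM in GM (SD, n = 3 each). Of genes that act on mitochondrial gene expression, Nrf1 (−0.46 ± 0.06) and Tfam (−0.23 ± 0.05) fell and Tfb2m rose (0.81).

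Every tested gene of the DNA replication, mitosis and replication-dependent histone lists fell. All 31 DNA replication genes fell (−0.64 to −3.97, median −2.75), with a summed level of 552 to 573 CPM in DM96h and 2436 to 2540 CPM in GM. The helicase gene Mcm5 was at 7.67, 9.51 and 10.2 CPM in DM96h and 139, 147 and 138 CPM in GM (15.5-fold lower), and Mcm10 and the origin licensing gene Cdc6 fell by 3.97 and 3.72 on the log2 scale. All 25 mitosis genes fell, each at least 2-fold (median −3.21), among them the spindle checkpoint gene Bub1b (−3.58 ± 0.05), the mitotic kinase gene Plk1 (−3.51 ± 0.06) and the chromosomal passenger gene Birc5 (−3.53 ± 0.09). Mki67 was at 33.7, 32.7 and 31.2 CPM in DM96h and 356, 334 and 357 CPM in GM (10.7-fold lower), so that its transcripts were still detected in every DM96h library. All 21 replication-dependent histone genes fell (median −3.99). The linker histone gene Hist1h1a was at 4.74, 5.41 and 5.42 CPM in DM96h and 179, 180 and 186 CPM in GM (35.0-fold lower). Of the 15 genes with the largest falls at a mean log2 CPM of 3 or more, all but Prl2c2, Prl2c3 and Nefl were Hist1 genes, whose near-identical coding sequences make the separate values uncertain.

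Regulators of the cycle split by role. Of 21 cyclin, CDK and E2F genes, 15 fell and 5 rose (median −0.92). Ccna2, a cyclin that drives S phase, was at 17.5, 17.2 and 16.4 CPM in DM96h and 162, 170 and 177 CPM in GM (9.97-fold lower). Ccnd1, the mitogen-responsive D-type cyclin, was at 33.1, 32.7 and 34.1 CPM in DM96h and 223, 233 and 219 CPM in GM (−2.75 ± 0.07). Ccnd3, the D-type cyclin known to rise in differentiating muscle, averaged 185 ± 13 CPM in DM96h and 63.2 ± 2.73 CPM in GM (SD, n = 3 each). E2f2 (1.37 ± 0.07) and Cdk2 (0.59 ± 0.05) also rose. Of 17 tested CDK inhibitors, pocket proteins and exit genes, 12 rose and 3 fell (median 0.84). Cdkn1a, the inhibitor p21, was at 211, 196 and 212 CPM in DM96h and 29.7, 30.9 and 30.5 CPM in GM (6.80-fold). The inhibitor gene Cdkn1c (2.09 ± 0.26) and Rb1, the retinoblastoma gene (1.88 ± 0.06), rose, while the pocket protein gene of cycling cells Rbl1 (−2.33 ± 0.07) and the inhibitor genes Cdkn2d (−1.26 ± 0.08) and Cdkn2c (−1.24 ± 0.07) fell. Cdkn2a and Cdkn2b had no count in any of the 6 libraries.

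Most condensin and cohesin genes fell, and other chromatin lists were mixed. Of 21 condensin and cohesin genes, 17 fell and 2 rose (median −0.81). The condensin I genes Ncapg (−3.42 ± 0.07) and Ncaph (−2.99 ± 0.06) and the sister chromatid cohesion genes Cdca5 (−3.23 ± 0.10) and Esco2 (−3.09 ± 0.09) fell most, whereas Esco1, the acetyltransferase that also acts outside S phase, rose 0.40 ± 0.06. Of 21 DNA methylation and Polycomb genes, 8 rose and 8 fell (median 0.047). Uhrf1 (−4.01 ± 0.05) and Dnmt1 (−2.22 ± 0.05), which copy methylation after replication, fell, and Dnmt3a (0.85 ± 0.07), a de novo methyltransferase, and Cbx7 (1.03 ± 0.13), a Polycomb reader, rose. In the nuclear envelope 10 of 17 genes fell and 6 rose (median −0.46). Lmnb1 (−2.72 ± 0.08) and the lamin B receptor gene Lbr (−1.04 ± 0.05) fell, while the muscle envelope genes Tmem38a (4.78 ± 0.08) and Plpp7 (3.49 ± 0.16) and the nesprin gene Syne1 (1.58 ± 0.06) rose and its relative Syne2 fell (−1.70 ± 0.08).

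Most splicing regulators of muscle rose, and most genes of the ribosome and its assembly fell. Of 15 tested splicing genes, 10 rose and 4 fell (median 0.28). Rbm24 averaged 83.9 ± 0.82 CPM in DM96h and 0.900 ± 0.17 CPM in GM (SD, n = 3 each), and Rbfox1 had 181 counts in DM96h and none in GM, at least 61.2-fold higher. Ptbp1, a repressor of muscle and neural exons, fell (−1.53 ± 0.05). All 21 tested cytosolic ribosomal protein genes fell, by 0.51 to 1.14 (median −0.76), with sums of 9562 to 10000 CPM in DM96h and 16280 to 17080 CPM in GM. In ribosome biogenesis 18 of 20 genes were lower and 1 higher (median −0.54), led by Nop56 (−1.49 ± 0.05), nucleophosmin Npm1 (−1.21 ± 0.06) and nucleolin Ncl (−1.17 ± 0.08). Of 20 tested proteasome genes, 4 rose and 6 fell, each by less than 2-fold (median −0.047).

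Lipid and amino acid genes moved apart. All 20 cholesterol synthesis genes rose (0.25 to 1.98, median 1.44), with the isomerase gene Idi1 at 111, 111 and 92.7 CPM in DM96h and 26.1, 26.4 and 27.7 CPM in GM (3.93-fold). The median of this list had been 2.79 at 24 h and 2.50 at 48 h on the log2(CPM + 0.1) scale, on which it was 1.44 at 96 h. The sterol effluxer gene Abca1 (3.71 ± 0.17) and its acceptor gene Apoe (3.36 ± 0.14) also rose. Of 20 genes of fatty acid synthesis, storage, uptake and oxidation, 13 rose and 2 fell, with a small median of 0.17 and 4 genes at 2-fold or more. The fatty acid uptake gene Cd36 (5.27 ± 0.21) and the desaturase gene Scd1 (1.94 ± 0.04) were among those 4. Of 22 targets of the stress factor ATF4 and amino acid supply genes, 21 fell and 1 rose (median −0.76). On the log2(CPM + 0.1) scale this median was lower at earlier times, −2.19 at 24 h and −1.61 at 60 h, and −0.76 at 96 h. At 96 h the largest falls were as follows. Cth, which makes cysteine (−2.55 ± 0.12), the cystine transporter gene Slc7a11 (−2.52 ± 0.10) and the mitochondrial folate gene Aldh1l2 (−2.48 ± 0.05) fell most. In contrast 13 of 19 genes of endoplasmic reticulum chaperones and their regulators rose and 2 fell (median 0.27), with Atf6 at 1.32 ± 0.04.

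The surface and matrix were remodelled gene by gene. Of 23 tested fibrillar and basement membrane genes, 16 rose and 5 fell (median 0.62). Col12a1 averaged 1450 ± 67 CPM in DM96h and 274 ± 24 CPM in GM (SD, n = 3 each). The basement membrane linkers went opposite ways, with Nid2 at 2.33 ± 0.07 and Nid1 at −1.88 ± 0.04, and Col18a1, the source of endostatin, fell (−2.62 ± 0.07). Of 19 tested matrix glycoproteins and proteoglycans, 10 rose and 9 fell (median 0.44). The small proteoglycan genes Ogn (3.30 ± 0.08) and Dcn (3.94 ± 0.07) and the matricellular gene Postn (4.02 ± 0.09) rose, and the fibulin gene Fbln1 (−2.29 ± 0.08) and the tenascin gene Tnc (−1.18 ± 0.06) fell. Of 18 tested genes of metalloproteinases, their inhibitors and lysyl oxidases of the matrix, 11 rose and 4 fell (median 0.36). The aggrecanase gene Adamts5 was at 3.42 ± 0.05 and the inhibitor gene Timp1 at −0.71 ± 0.05. Among 16 tested integrin genes and partners, 11 rose and 2 fell (median 0.72). Itgb7, the β7 chain known mainly from lymphocytes, was at 0.757, 0.403 and 1.20 CPM in DM96h and 55.9, 59.3 and 48.2 CPM in GM (69.5-fold lower), while Itgb1bp2, the muscle partner of β1, rose 6.69 ± 0.19. Of 22 tested genes of the non-muscle and smooth muscle actin cytoskeleton, 14 fell and 5 rose (median −0.48), with Cnn1 (−3.80 ± 0.34) and Tagln2 (−2.14 ± 0.05) lower and Acta2, an α-actin also found in young myotubes, higher (1.65 ± 0.05). The actin genes share coding sequence, so the values of Acta1, Acta2 and Actc1 may hold each other's reads.

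Both insulin-like growth factors rose. Igf2 was at 31.7, 25.7 and 30.6 CPM in DM96h and 2.34, 2.17 and 2.59 CPM in GM (12.4-fold), and Igf1 rose 4.53 ± 0.14. The binding protein genes split. Igfbp2 (−2.02 ± 0.07) and Igfbp6 (−1.17 ± 0.07) fell, Igfbp4 (1.47), Igfbp5 (0.55) and Igfbp3 (0.42) rose, and Igfbp7 was at −0.38. In the insulin-like growth factor axis as a whole, 10 of 16 genes rose and 4 fell (median 0.49). H19, an imprinted long non-coding RNA beside Igf2, was at 6921, 6595 and 6899 CPM in DM96h and 546, 541 and 574 CPM in GM (12.3-fold). H19 and Igf2 lie on chr7 with Tnni2 and Tnnt3 (142441816 to 142666816), and the 4 genes all rose. Of 12 tested imprinted genes, 8 rose and 1 fell (median 0.88), while the Dlk1 and Meg3 domain was near 0, with at most 1 count per group for Dlk1, Meg3, Rian, Mirg and Rtl1. In the TGF-β family 12 of 21 tested genes rose and 7 fell (median 0.57). Fst, the myostatin and activin antagonist follistatin, averaged 101 ± 6.0 CPM in DM96h and 2.14 ± 0.43 CPM in GM (SD, n = 3 each), and the inhibin and activin subunit gene Inhbb rose 2.77 ± 0.07, while the BMP antagonist gene Grem1 fell (−1.59 ± 0.06). Mstn itself had 6 counts in each group and was not tested.

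Among secreted factors 7 of 19 tested genes rose and 11 fell (median −0.27, and −0.51 with the CPM filter). Fndc5, the irisin precursor gene (5.72 ± 0.19), and Fgf21, a metabolic hormone gene (5.41 ± 0.16), rose, and the satellite cell mitogen gene Hgf fell (−2.13 ± 0.07). The proliferin genes of the prolactin family also fell. Prl2c2 was at 1.05, 1.01 and 0.949 CPM in DM96h and 104, 112 and 101 CPM in GM (105-fold lower, −6.71 ± 0.11), the largest fall at a mean log2 CPM of 3 or more, and Prl2c3 (−5.70 ± 0.11) and Prl2c5 (−4.35 ± 0.27) fell with it. These genes lie together on chr13 and are nearly identical, so their separate values are uncertain. Nefl, the light neurofilament, was at 2.21, 2.86 and 2.78 CPM in DM96h and 85.3, 83.5 and 87.2 CPM in GM (32.7-fold lower), and the other intermediate filament genes Nefm (−3.66 ± 0.23) and Krt19 (−3.58 ± 0.12) fell too. Of the 10 tested genes of intermediate filaments and their linkers, 5 rose and 4 fell (median 0.43), with the desmin partner gene Synm (1.72 ± 0.20) and the linker gene Dst (1.06 ± 0.07) higher.

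Signalling and turnover lists were mixed. Of 24 tested immediate early and growth response genes, 6 rose and 11 fell (median −0.030, and −0.091 without GM replicate 2), with Fosl1, an AP-1 factor, at −4.13 ± 0.18 and Myc at −1.63 ± 0.12, while Fos rose 1.10 ± 0.17. Of 15 genes of YAP and TEAD factors, their cofactors and their targets, 12 rose and 2 fell (median 0.86). The targets Ctgf (1.35 ± 0.07) and Ankrd1 (1.27 ± 0.04) rose, and the target Axl fell (−0.85 ± 0.05). Of 19 tested genes of FoxO, the atrophy ligases and autophagy, 14 rose and 3 fell (median 0.52). The muscle ubiquitin ligase genes Trim63 (5.48 ± 0.13) and Fbxo32 (1.77 ± 0.05) rose, and the autophagy receptor gene Sqstm1 fell (−0.88 ± 0.05). Of 19 tested interferon and antigen presentation genes, 7 rose and 8 fell (median −0.23, and −0.43 without GM replicate 1). Of 14 iron and haem genes, 7 rose and 5 fell (median 0.18). Tfrc, the transferrin receptor gene (2.35 ± 0.07), and the ferroxidase gene Cp (3.44 ± 0.06) rose while Ftl1, the ferritin light chain gene, fell (−1.84 ± 0.06).

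Transcript classes differed in how often they were called, and they were not matched for level, on which a call depends. Of 12841 protein-coding genes tested, 74.5% were called, 4890 higher and 4675 lower. Of 716 processed pseudogenes, 42 were higher and 250 lower (median −0.40), and reads of their parent genes may be counted there. Of 307 long intergenic RNAs, 89 were higher and 73 lower, and of 193 antisense RNAs, 59 were higher and 28 lower. Apart from H19, the largest rises of long non-coding RNAs at a mean log2 CPM of 1 or more were those of Gm26870 (5.02 ± 0.62) and Gm28653 (3.87 ± 0.07). Gm26870 varied between libraries, at 113, 93.0 and 58.5 CPM in DM96h and 2.78, 1.62 and 3.86 CPM in GM, yet the groups did not overlap. The largest falls were those of Gm42743 (−3.29 ± 0.10), RP23-115O21.3 (−2.81 ± 0.14) and Lockd (−2.42 ± 0.12). Malat1, an abundant nuclear RNA, rose 3.66-fold.

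Most of these differences were at their extreme at 96 h among the times measured. Of the 1739 genes at least 2-fold higher, 76.7% had their highest mean level at 96 h, and of the 1775 genes at least 2-fold lower, 84.4% had their lowest mean there. The choice of these genes used the 96 h values, so the shares are a description. In GM and at 12, 24, 48, 60 and 96 h in DM the mean level of Myh3 was 4.98, 9.96, 26.7, 133, 253 and 1190 CPM. The mean level of Mki67 in the same order was 349, 394, 139, 136, 75.7 and 32.5 CPM. By contrast 5.98% of the higher genes were highest at 24 h, and Idi1 was among these, with mean levels of 26.7, 114, 328, 251, 146 and 105 CPM over the 6 groups.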

How the data were processed

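Strand-specific RNA-seq libraries of total RNA were compared, 3 DM96h against 3 GM, grouped by their titles. The deposited values were unscaled counts per gene, in whole numbers. Per the submitters' processing notes, STAR, RSEM, DESeq2 and edgeR were among the tools and mm10 was the build. The sources used here do not give the role of each tool or how multiply matching reads were assigned. The deposited ATAC-seq peak lists hold for each peak a fold enrichment, a ratio, and a −log10 q-value. Tools named for such data in the submitters' processing notes were MACS2 2.2.7 and Bowtie2 2.2.6. Any listed peak within 1 kb of a RefSeq start was used, as the authors called it, whatever its fold or −log10 q. Hi-C files were not used here.

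Of 49089 genes, 22315 had no count in the 18 libraries and 15303 passed edgeR's filterByExpr by group. These held at least 99.95% of the counts of each library. All 18 libraries (6 groups of 3) were fitted in R 4.3.3 by the quasi-likelihood F test of edgeR 4.0.16, with TMM scaling and group as the factor (12 residual degrees of freedom). The other 12 libraries add to the estimate of spread. The biological coefficient of variation was 0.062. The p-values were adjusted by Benjamini-Hochberg over all tested genes, with a threshold of 0.05. The standard error is the size of the log2 fold change over the square root of F. CPM used TMM-scaled library sizes. Ratios of counts have exact 95% intervals that cover counting error only, and a group at 0 counts was set at 3 counts in all for a bound.

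The fit was also run on simulated counts in which 200 of 15014 genes had known changes. Far more genes differed in the data, so this is no test of the scaling there. Replicate pairs differed beyond sampling noise (chi-square 5.06 to 17.1 per degree of freedom), so each library counted once.

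The 61 gene lists (996 genes, 901 tested) and the genes to name were chosen with earlier results of these data known. Named are the 15 largest rises and falls at a mean log2 CPM of at least 3, a panel of 29 genes, per list at most 4 called genes in the direction of its median and 3 against it, the 3 largest changes each way of long non-coding RNAs, 25 isoform pairs, and genes marked as chosen after their values were seen. Members that were not tested or not called are named to account for them. For the 3 listed symbols with more than 1 tested entry, Pygm and Uqcrc1 among them, the entry of higher mean level was used. Symbols follow the table, except Mymk and Mymx, which it lists under older symbols. Alternatives were RLE and upper-quartile scaling, protein-coding genes alone, DESeq2 1.42.0, 2 other count filters, the 6 libraries alone, a replicate block and leaving out each library. Some named genes are not reported here.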

Additional observations from a re-analysis of the deposited data

How the results depend on the processing

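The counts of calls changed by less than 1.5 times under every alternative run. Genes higher at 96 h numbered 5315 with RLE scaling, 5020 with upper-quartile scaling, 4602 among protein-coding genes alone, 5175 with DESeq2, 5414 without a count filter, 4903 with a CPM filter and 5179 in the 6 libraries alone. Leaving out 1 library gave 4896 to 5096 higher and 5074 to 5258 lower genes, and 1677 to 1785 and 1788 to 1856 at 2-fold or more. Of the called genes 50.5% were higher in full and 47.8% with upper-quartile scaling, the setting farthest from it, and the median of all genes shifted by 0.040 or less under each alternative. No named gene changed sign, and of the list medians only that of the nuclear respiratory chain, near 0 in full (0.0028), did (−0.043 to −0.0015 under 10 alternatives). With the replicate number as a block, 5292 genes were higher and 5185 lower (1735 and 1771 at 2-fold or more). Whether the numbers pair the libraries was not settled. Same-numbered DM96h and GM libraries deviated together with correlations of −0.024, 0.14 and 0.042, and differently numbered ones with −0.109 to 0.0715. A second principal component of the 6 libraries, with 2.89% of the variance, ordered the replicate numbers alike in both groups. On it replicate 2 lay at 18.96 in DM96h and 16.06 in GM, and replicate 3 at −17.39 in DM96h and −12.83 in GM. The block changed 1 call of a named gene, that of Cebpa (0.23). Of 373 named genes tested, 8 lost their call under some alternative (Cebpa, Cox7a2, Igf2bp3, Oasl2, Psmd12, Uqcrc1, Wapl and mt-Co3), and Myf6 gained one without GM replicate 2 (−1.51). The cause was not tested. Medians of 26 of 60 lists moved by more than their spread between libraries under some alternative. That of the interferon list was −0.43 without GM replicate 1 and −0.23 in full, that of the secreted factors −0.51 with the CPM filter and −0.27 in full, and that of the immediate early list −0.091 without GM replicate 2 and −0.030 in full. Depth limits the genes near 0: 36 tested genes had no count in GM and 8 none in DM96h, so the size of their fold changes has no upper bound.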
